A study of Mus musculus with 6 samples.

Results

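The genes described here encode the receptors through which CD8+ T cells sense interleukin (IL)-18, IL-12 and interferon-γ, together with *Stat4* and *Ifng*. They are *Il18r1*, *Il18rap*, *Il12rb1*, *Il12rb2*, *Il1rl1*, *Il6ra*, *Ifngr1*, *Ifngr2*, *Stat4* and *Ifng*, 10 of the 78275 genes in the deposited table, picked by symbol. Of these, 9 had enough counts to be compared and *Il1rl1* did not. The list was put together with results of the same comparison between genotypes known, so the differences of these 10 genes between genotypes are given as a description and support nothing on their own.

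RNA was sequenced from TCRβ-high CD4-CD8+ T cells sorted from 3 wildtype (WT) and 3 BIT mice, 1 library per mouse. All mice were on the C57BL/6 background and were labelled as males between 9 and 10 weeks of age. BIT mice are homozygous for an allele in which the sequence of *Psmb11*, encoding the thymoproteasome subunit β5t, was inserted into *Psmb8*, encoding the immunoproteasome subunit β5i. The allele acts in every cell that normally uses *Psmb8*, not in T cells alone. The labels give lymph nodes as the tissue but name lymph nodes and spleens in the sorting protocol, and the comparison asks how the transcriptome of CD8+ T cells differs between BIT and WT mice.

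IL-18 binds a receptor made of IL-18Rα (*Il18r1*) and the accessory chain IL-18RAP (*Il18rap*), and IL-12 binds a receptor made of IL-12Rβ1 and IL-12Rβ2, which acts through the transcription factor STAT4. Both cytokines together can make memory CD8+ T cells and natural killer cells secrete interferon-γ without a signal from the antigen receptor. Interferon-γ is sensed by IFNGR1 and IFNGR2 on almost all cells. IL-33 binds ST2 (*Il1rl1*), a relative of IL-18Rα, and IL-6 binds IL-6Rα (*Il6ra*), which naive T cells carry at high levels.

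Total counts per library were between 37467678 and 52922675. *Psmb8* had between 8024 and 10790 counts in WT mice and between 59 and 73 in BIT mice, and *Psmb11* had 0 counts in every WT mouse and between 1226 and 1926 in BIT mice. The library labelled WT replicate 3 went against its label as a male, with 66626 counts of *Xist* and 0 counts of *Eif2s3y*, *Uty*, *Kdm5d* and *Ddx3y* on the Y chromosome, whereas their counts in the other 5 libraries added up to between 8474 and 12329. Results below are therefore also given without that library. *Xist* had 125 counts in BIT replicate 3 and between 2 and 9 in WT and BIT replicates 1 and 2. Over all genes both libraries numbered 3 lay highest on the first principal component (34.4% of the variance), with WT replicate 3 at 54.6 and BIT replicate 3 at 28.6. WT replicates 1 and 2 lay at -7.04 and -3.31, and BIT replicates 1 and 2 at -36.5 and -36.3. Within each replicate number the BIT library was thus lower than the WT library on this component. The summed level of 8 markers of CD8+ T cells (*Cd8a*, *Cd3e* and others) was between 5343 and 6348 CPM, the count relative to the library total scaled with TMM factors, and that of 4 markers of CD4+ and regulatory T cells between 18.2 and 27.0 CPM. Markers of B cells summed to between 22.7 and 42.4 CPM and the 8 markers of myeloid cells to between 13.1 and 21.5 CPM in WT mice and, below all of these, to between 11.9 and 13.0 CPM in BIT mice. The 6 markers of dendritic cells summed to 26.2 CPM in WT replicate 3 and to between 5.30 and 9.74 CPM in the other libraries, and most of the former was *Itgax* at 19.2 CPM.

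*Il18r1*, *Il18rap* and *Il1rl1* lie side by side in the IL-1 receptor gene cluster on chromosome 1 of GRCm39, all on the plus strand. *Il1rl1* runs from 40468730 to 40504575, *Il18r1* follows after 136 bases from 40504712 to 40540014, and *Il18rap* follows after a further 14507 bases from 40554522 to 40590865. *Stat4* is on the same chromosome from 52026307 to 52151423. Binding sites of activated STAT factors such as STAT4 share the letters TTCNNNGAA, called the interferon-γ-activated site, which read the same on both strands. Windows ran from 250 bases before to 50 bases after the start of the transcript marked as canonical for each protein-coding gene. Of 21770 genes 8.81% held this motif there on GRCm39. Among the 10 genes it was found in the windows of *Il18r1*, *Il12rb2* and *Ifng*. These 30-base stretches are shown because they hold the letters shared by STAT binding sites, at *Il18r1* and at 2 genes of low level, and capitals mark the motif:
*Il18r1*, chr1:40504817-40504846, plus strand: aggctgcaggTTCCGGGAAgccaaaggcgg
*Il18r1*, chr1:40504937-40504966, plus strand: tcggggttagTTCTGGGAActgtggagctc
*Il18r1*, chr1:40505004-40505033, plus strand: agtacaggtcTTCCCAGAActgaaagcttg
*Il12rb2*, chr6:67353276-67353305, minus strand: gttcccttttTTCTCAGAAccgcactaagc
*Ifng*, chr10:118276701-118276730, plus strand: tTTCAGAGAAtcccacaagaatggcacagg
Counted with the first base of the canonical transcript as 0, the motifs of *Il18r1* began at positions -191, -71 and -4. That of *Il12rb2* began at -123 and that of *Ifng* at -249. The canonical transcript of *Il18r1* starts at 40505018, so its 3 stretches lie inside the gene as annotated from 40504712. At least 3 matches in 1 window were found in 5 of the 21770 genes, *Il18r1* among them, which is 0.023% of all. The cutoff of 3 equals the number in *Il18r1*, so nothing is read from this share. The T-box letters AGGTGTGA, searched on both strands, were in 1.13% of all windows and in 0 of the 10. The AP-1 letters TGANTCA, also the same on both strands, were in 7.14% of all windows and in 0 of the 10. A match is a description of the letters and not of binding.

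The receptors differed widely in level. Per kilobase of annotated exon, the order over the 6 mice was *Ifngr1*, *Il6ra*, *Stat4*, *Il18r1*, *Il18rap*, *Ifngr2*, *Il12rb1*, *Il12rb2*, *Ifng* and *Il1rl1*. *Ifngr1*, the ligand-binding chain for interferon-γ, stood at 49.3 ± 6.92 CPM per kilobase in WT mice (SD, n = 3) and at 68.1 ± 6.90 in BIT mice (SD, n = 3), above 97.3% of the genes tested. *Il6ra*, *Stat4* and *Il18r1* were above 91.9%, 91.5% and 90.8% of the genes tested, and their order differed between the genotypes. Per kilobase, *Il18r1* was below both *Il6ra* and *Stat4* in all 3 WT mice, whereas in BIT mice it was above *Stat4* in 3 of 3 and above *Il6ra* in 2 of 3. This switch depended on the division by length, since in CPM *Il18r1* was below both in 6 of 6 mice. *Il12rb1* was above 41.3% of the genes tested, and *Il12rb2*, the chain that makes the IL-12 receptor competent to signal, above 24.8%. *Ifng*, the cytokine itself, was above 22.3% of them.

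Neighbours in this order were compared within each mouse, with both genotypes pooled. In 5 of the 9 neighbouring pairs the higher gene was higher in 6 of 6 mice, namely *Ifngr1* over *Il6ra* by 1.45 on the log2 scale, *Il18r1* over *Il18rap* by 1.82, *Ifngr2* over *Il12rb1* by 1.73, *Il12rb1* over *Il12rb2* by 1.43 and *Ifng* over *Il1rl1*. For each of these pairs the exact sign-flip permutation test, two-sided, gave p = 0.03125, the smallest that 6 mice allow. The adjusted p over the 9 pairs was 0.0563, so that no pair passed 0.05 after adjustment. At that smallest p the adjusted value follows the number of such pairs and not the size of a difference. The order was also taken from these same mice. In the other 4 pairs the order was not the same in every mouse. *Il6ra* was above *Stat4* in all mice but WT replicate 2 (exact permutation p = 0.0938). *Stat4* was above *Il18r1* in 3 of 3 WT mice and in 0 of 3 BIT mice (exact permutation p = 0.25). *Il18rap* was above *Ifngr2* in 3 of 3 BIT mice and, among WT mice, in replicate 3 alone (exact permutation p = 0.406). *Il12rb2* was above *Ifng* in 3 of 3 BIT mice and, among WT mice, in replicate 2 alone (exact permutation p = 0.188).

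**Figure D1:**
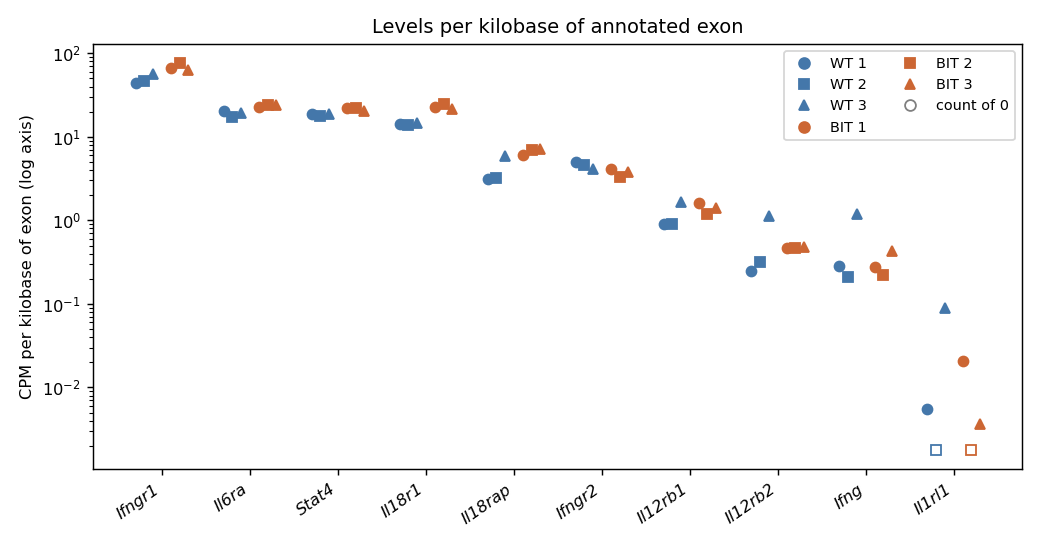
Level of each gene per kilobase of annotated exon (CPM per kilobase, log axis) in each of the 6 libraries, ordered by the mean over all mice. WT libraries are blue and BIT libraries orange, the shape gives the replicate number, and open symbols at the bottom stand for a count of 0. *Ifngr1* is highest and *Il1rl1* lowest. WT replicate 3 lies above the other WT libraries for *Ifngr1*, *Il18rap*, *Il12rb1*, *Il12rb2*, *Ifng* and *Il1rl1*, and by a small margin for *Il18r1* and *Stat4*.

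Of the 2 chains of the IL-18 receptor, *Il18r1* was higher in BIT than in WT CD8+ T cells and was the one gene of the list past the threshold over all genes, while *Il18rap* did not pass it with all mice (adjusted p = 0.50, limma-voom). *Il18r1*, the IL-18-binding chain, was at 69.8, 68.9 and 71.6 CPM in WT mice and at 112, 121 and 106 CPM in BIT mice. The 3 WT values lay within a few CPM of each other, and every BIT mouse was far above all of them. The fitted log2 fold change of BIT over WT was 0.63 (standard error 0.0812), a 1.55-fold difference. *Il18rap*, the chain needed for signalling, was at 21.2, 21.5 and 39.7 CPM in WT mice and at 40.6, 47.5 and 48.5 CPM in BIT mice. WT replicate 3 was close to the lowest BIT mouse, while the other WT mice were far lower, and the groups did not overlap. Its log2 fold change was 0.78 (standard error 0.230), and 1.08 (standard error 0.123) without WT replicate 3. In bulk RNA, more cells that carry a transcript and more transcript per cell cannot be told apart, here and for every gene below.

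*Il1rl1*, which encodes the IL-33 receptor ST2, is adjacent to *Il18r1* and was close to absent. The counts were 2, 0 and 26 in the WT libraries, against 6, 0 and 1 in the BIT libraries. The 26 counts of WT replicate 3 have a 95% exact Poisson interval from 17.0 to 38.1, counting error only. As a one-sided 95% limit, a count of 0 in WT replicate 2 and BIT replicate 2 allows up to 3 counts, or 0.0593 and 0.0713 CPM of the library total. The gene was removed by the filter on low counts, and without that filter its difference was -0.56 on the log2 scale, with a standard error of 1.41 (limma-voom, adjusted p = 0.910). Of 6 markers of mast cells and basophils, which carry ST2, *Mcpt8* and *Fcer1a* had 0 counts in every library, and the list summed to between 1.51 and 2.27 CPM. The part of the dendritic cell markers in WT replicate 3 in this value was not tested.

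The IL-12 receptor chains were low, and their difference between genotypes turned on WT replicate 3. *Il12rb1*, the chain shared with the IL-23 receptor, was at 5.62, 5.62 and 10.2 CPM in WT mice and at 9.96, 7.50 and 8.69 CPM in BIT mice. WT replicate 3 was the highest of all 6 libraries, and the other WT mice were below every BIT mouse. The log2 fold change was 0.39 (standard error 0.224) with all mice and 0.63 (standard error 0.177) without WT replicate 3, but 0.25 without WT replicate 2, 0.27 without WT replicate 1 and 0.27 without BIT replicate 1. The counts of *Il12rb2* were 49, 57 and 184 in the WT libraries, against 75, 74 and 73 in the BIT libraries, or 0.939, 1.19 and 4.30 CPM against 1.77, 1.77 and 1.82 CPM. The BIT mice were almost equal to each other, WT replicates 1 and 2 lay below them and WT replicate 3 far above. The log2 fold change of *Il12rb2* was 0.23 (standard error 0.457) with all mice and 0.78 (standard error 0.289) without WT replicate 3, and it had the other sign with edgeR (-0.26), with DESeq2 (-0.25), without WT replicate 1 (-0.09) and without WT replicate 2 (-0.01).

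*Stat4*, the transcription factor below the IL-12 receptor, was abundant and differed little between the genotypes. Its levels were 168, 159 and 169 CPM in WT mice and 201, 197 and 183 CPM in BIT mice. Every BIT mouse was above every WT mouse, by a small margin. The log2 fold change was 0.18 (standard error 0.0738), and 0.21 (standard error 0.0844) without WT replicate 3. Since RSEM gave *Stat4* counts that were not whole, part of its reads also matched other genes.

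*Ifng* itself was near the lower end of what was detected. Its estimated counts, some of them also not whole, were 19.2, 13 and 66.2 in the WT libraries, against 15, 12 and 22.3 in the BIT libraries. The BIT mice and WT replicates 1 and 2 were in the same range, between 0.272 and 0.556 CPM, and WT replicate 3 was at 1.55 CPM. The log2 fold change was -0.15 (standard error 0.577) with all mice and 0.41 (standard error 0.473) without WT replicate 3, so that its direction depended on that library, and it was 0.05 with sample quality weights, -0.67 without WT replicate 2 and -0.86 with edgeR.

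Neither chain of the interferon-γ receptor passed the threshold over all genes, with adjusted p = 0.503 for *Ifngr1* and 0.559 for *Ifngr2* (limma-voom). *Ifngr1* was at 127, 131 and 163 CPM in WT mice and at 187, 216 and 178 CPM in BIT mice. All BIT mice were above all WT mice, with WT replicate 3 the nearest of them. Its log2 fold change was 0.41 (standard error 0.125), and 0.54 (standard error 0.103) without WT replicate 3. *Ifngr2*, the accessory chain whose amount is known to limit signalling in T cells, was at 22.5, 20.8 and 18.6 CPM in WT mice and at 18.8, 14.9 and 17.1 CPM in BIT mice. BIT replicate 1 was just above WT replicate 3, so that the groups overlapped, and the log2 fold change was -0.29 (standard error 0.119). Without WT replicate 3 it was -0.35 (standard error 0.125), and every BIT mouse was then below both remaining WT mice.

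*Il6ra*, the IL-6-binding chain, had the highest mean CPM of the receptors in both genotypes, at 182, 153 and 173 CPM in WT mice and 200, 211 and 213 CPM in BIT mice. The groups did not overlap, and the WT mice varied more than the BIT mice. The log2 fold change was 0.25 (standard error 0.0845), and 0.28 (standard error 0.0951) without WT replicate 3.

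**Figure D2:**
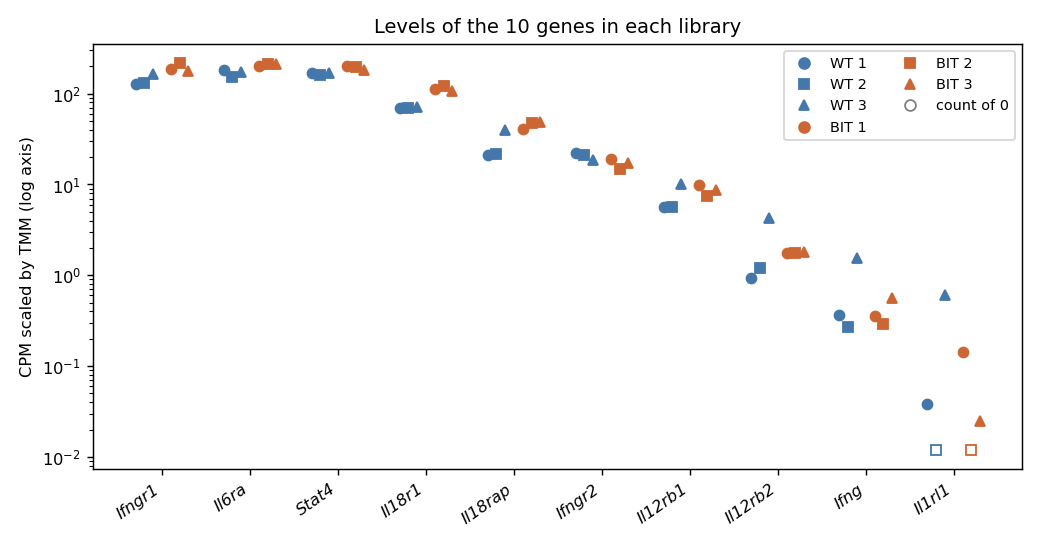
Level of each of the 10 genes (CPM scaled by TMM factors, log axis) in the 3 WT (blue) and 3 BIT (orange) libraries, in the order of their level per kilobase, with the shape giving the replicate number and open symbols a count of 0. The BIT libraries lie above the WT libraries for *Ifngr1*, *Il6ra*, *Stat4*, *Il18r1* and *Il18rap*. WT replicate 3 is the highest library for *Il12rb1*, *Il12rb2*, *Ifng* and *Il1rl1*.

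Over the 9 genes compared, 7 had a log2 fold change above 0, where 52.3% of all genes tested did, and the median was 0.25 beside 0.01 over all 16105 genes. Without WT replicate 3 the median was 0.54 beside 0.005 over all genes tested in that fit. In the limma-voom fit with Benjamini-Hochberg adjustment over the whole table, 1 of the 9 was called at an adjusted p below 0.05, *Il18r1* (adjusted p = 0.0399), where 0.137% of all genes were called. Of the 9, 6 had an unadjusted p below 0.05, where 8.57% of all genes did, and these were *Il18r1*, *Il18rap*, *Il6ra*, *Ifngr1*, *Stat4* and, lower in BIT mice, *Ifngr2*. In 5 genes every BIT mouse was above every WT mouse, where 6.95% of all genes were, and 0 genes showed the opposite, which 6.71% of all genes did. Without WT replicate 3, 7 were above and 1 below, where 27.5% of all genes did not overlap in either direction. Since the list was drawn up with this comparison known, nothing is read from these shares.

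The call of *Il18r1* held with each other tool, filter and normalization, and without WT replicate 3, but not without any other mouse. Its adjusted p was 0.0426 with edgeR, where 0.0869% of all genes were called, 7.75e-09 with DESeq2, where 0.94% were, and 0.0317 without WT replicate 3, where 0.224% were. It was 0.199 without WT replicate 1, 0.197 without WT replicate 2, 0.152 without BIT replicate 1, 0.277 without BIT replicate 2 and 0.100 without BIT replicate 3, in limma-voom with Benjamini-Hochberg adjustment. In these fits the log2 fold change of *Il18r1* was between 0.58 and 0.67. In replicates 1 and 2 alone, where 0.439% of all genes were called, the adjusted p from limma-voom was 0.0289 for *Il18r1* and 0.0117 for *Il18rap*. *Il18rap* was also called without WT replicate 3 (adjusted p = 0.0148, limma-voom) and not in any other fit, with an adjusted p of 0.610 from edgeR, 0.0825 from DESeq2 and up to 0.999 without BIT replicate 2 (limma-voom). *Ifngr1* was called with DESeq2 alone (adjusted p = 0.0480).

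**Figure D3:**
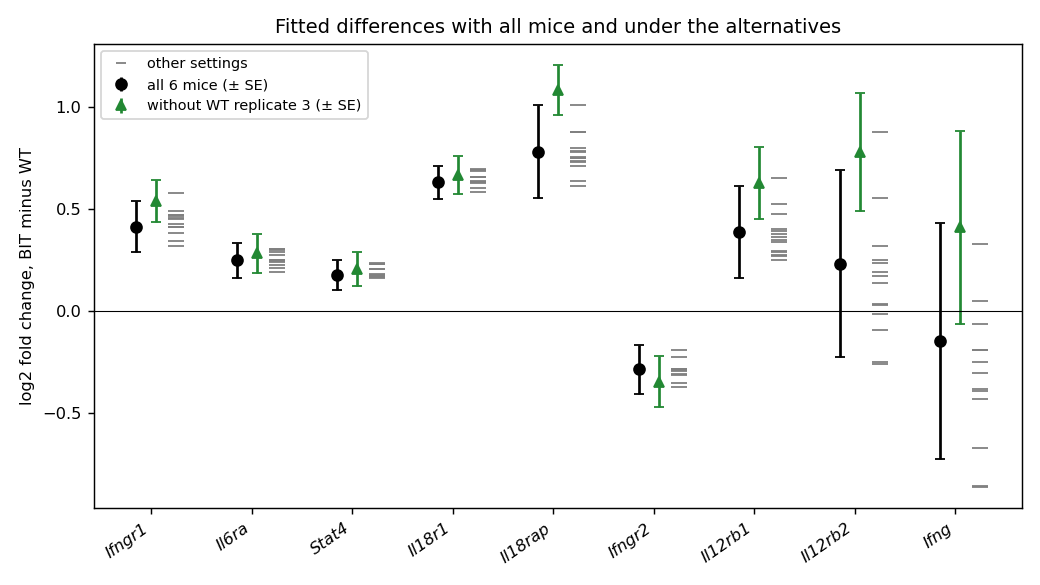
Fitted log2 fold change of BIT minus WT mice for the 9 genes compared, with all 6 mice (black circles, bars are standard errors), without WT replicate 3 (green triangles, bars are standard errors) and under each other setting (grey dashes). *Il18r1* stays near 0.63 under every setting, whereas *Il12rb2* and *Ifng* lie on both sides of 0.

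The balance of the 2 chains of each receptor was compared as the ratio of their levels per kilobase. The ratio of *Ifngr1* to *Ifngr2* was 8.95, 9.99 and 13.9 in WT mice and 15.8, 23.0 and 16.6 in BIT mice. Every BIT mouse had a ratio above every WT mouse, and WT replicate 3 was again the nearest. The ratio of *Il18r1* to *Il18rap* was 4.52, 4.40 and 2.47 in WT mice and 3.78, 3.49 and 3.01 in BIT mice, with the BIT mice between the lowest and the other WT mice. The ratio of *Il12rb1* to *Il12rb2* was 3.65, 2.87 and 1.45 in WT mice and between 2.58 and 3.43 in BIT mice. For these last 2 receptors the ratio was lowest in WT replicate 3 and the genotypes overlapped.

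**Figure D4:**
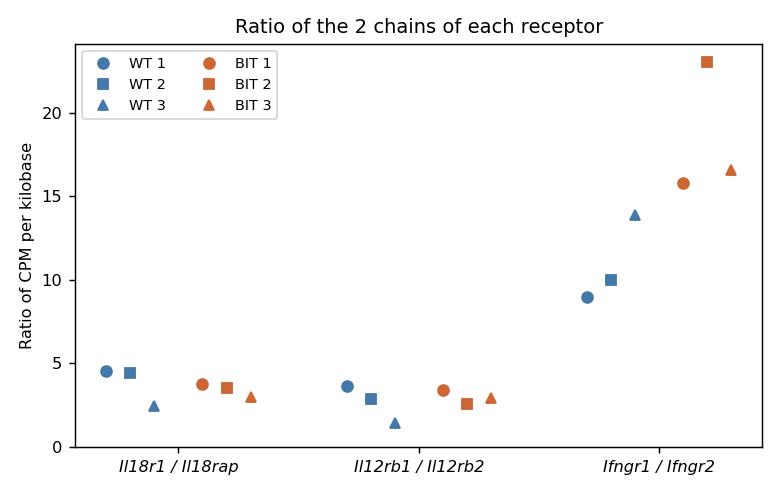
Ratio of the levels per kilobase of the 2 chains of the IL-18, IL-12 and interferon-γ receptors in each library (linear axis from 0, WT blue, BIT orange, shape gives the replicate number). The ratio of *Ifngr1* to *Ifngr2* is at most 13.9 in WT mice and at least 15.8 in BIT mice, and the other ratios overlap between the genotypes.

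WT replicate 3 differed from the other WT mice in some of these genes and not in others. Against the mean of WT replicates 1 and 2 it was 4.84-fold higher for *Ifng*, 4.03-fold for *Il12rb2*, 1.86-fold for *Il18rap* and 1.82-fold for *Il12rb1*. The ratio was 1.26 for *Ifngr1*, 1.03 for *Il18r1*, *Il6ra* and *Stat4*, and 0.859 for *Ifngr2*. WT replicate 3 was the highest of the 6 libraries in 4 of the 10 genes, and in 22.9% of all genes tested. BIT replicate 3 was at between 0.885 and 1.10 times the mean of the other BIT mice for 8 of the 10 genes, the exceptions being *Ifng* at 1.73 times and *Il1rl1*. In WT replicate 3 the transcription factor *Tbx21* was also higher, at 33.9 CPM against 15.8 and 16.7 CPM in the other WT mice. The part of the sex of that mouse, of the *Itgax* level or of what sets both libraries numbered 3 apart in these values was not tested.

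Around the 10 genes, 8 lists of their ligands, signalling partners, targets and regulators held 106 genes, of which 81 could be compared. In the same limma-voom fit, adjusted over the whole table, 0 of the 81 were called, and 9, or 11.1%, had an unadjusted p below 0.05 beside 8.57% of all genes. With edgeR 0 were called, and with DESeq2 1 was called, *Eomes*. The median log2 fold change over the 81 was 0.06, and 48 of them were above 0, where 52.3% of all genes tested were.

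The ligands were scarce in these sorted cells. *Il18* had between 6 and 25 counts per library, *Il33* between 0 and 4, *Il12a* between 0 and 2 and *Il12b* between 0 and 4, and *Il6* had 0 counts in every library. In the list of IL-18 and IL-1 family signalling 0 of 15 genes had an unadjusted p below 0.05, and the log2 fold changes of its adaptor *Myd88* and its kinase *Irak4* were 0.19 (standard error 0.102) and 0.17 (standard error 0.0835). *Tab2*, further down the same pathway, was at -0.18 (standard error 0.0845). Of 7 other genes in or beside the chromosome 1 cluster 3 could be compared, *Il1rl2*, *Mfsd9* and *Map4k4*, and 0 had an unadjusted p below 0.05. Of these 3 only *Il1rl2* is an IL-1 receptor gene of the cluster itself. *Il1rl2*, between *Il1r1* and *Il1rl1*, was at 8.12 ± 0.0733 CPM in WT mice (SD, n = 3) and 7.31 ± 1.36 CPM in BIT mice (SD, n = 3).

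In the IL-12 family list 1 of 5 genes and in the IL-6 family list 2 of 8 genes had an unadjusted p below 0.05, all higher in BIT mice, as 4.25% of all genes were, while 4.32% were lower. *Stat3*, which belongs to both lists and is activated by IL-6, was at 183 ± 19.7 CPM in WT mice (SD, n = 3) and 225 ± 12.6 CPM in BIT mice (SD, n = 3), with a log2 fold change of 0.24 (adjusted p = 0.531, limma-voom). For *Il6st*, the signalling chain gp130 that pairs with IL-6Rα, the log2 fold change was 0.17 (adjusted p = 0.574, limma-voom) and for *Jak1*, its kinase, 0.23 (adjusted p = 0.586, limma-voom). All BIT mice were above all WT mice for these 3 genes, as they were for 6.95% of all genes, but for *Jak1* only by 1283 CPM in BIT replicate 3 against 1281 CPM in WT replicate 1.

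Among 20 genes of the interferon-γ response 0 had an unadjusted p below 0.05, and the median log2 fold change was 0.07. Log2 fold changes were 0.26 (standard error 0.155) for the guanylate-binding protein gene *Gbp2* and, for *Ciita*, the regulator of MHC class II genes, -0.49 (standard error 0.285). Of 14 genes known for the induction of *Ifng* by IL-12 with IL-18, 1 was higher and 1 lower at an unadjusted p below 0.05. Over all genes 4.25% were higher and 4.32% lower at that threshold. *Relb*, a subunit of NF-κB, was the one with higher levels in BIT mice (log2 fold change 0.28, adjusted p = 0.559, limma-voom). *Jun*, a subunit of AP-1, was at 117, 138 and 282 CPM in WT mice and at 31.1, 13.4 and 227 CPM in BIT mice. Both replicates 3 were the highest of their genotype, and the log2 fold change of *Jun* was -1.93 (standard error 0.838, adjusted p = 0.575, limma-voom) with all mice and -2.66 in replicates 1 and 2 alone (adjusted p = 0.0112, limma-voom). It was -3.06 without BIT replicate 3 and -1.04 without BIT replicate 2, and -0.98 with edgeR as with DESeq2, none of them called.

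The regulators of *Ifng* transcription had 3 of 15 genes higher and 1 lower at an unadjusted p below 0.05, beside 4.25% and 4.32% of all genes. *Eomes*, a T-box factor of memory CD8+ T cells, was at 82.7, 76.4 and 95.6 CPM in WT mice and at 140, 157 and 128 CPM in BIT mice, without overlap. Its adjusted p was 0.112 with all mice and 0.0271 without WT replicate 3, both from limma-voom, and 5.12e-06 from DESeq2. With edgeR it was 0.109, and with any other mouse left out it was between 0.115 without BIT replicate 3 and 0.582 without BIT replicate 2 (limma-voom). *Eomes* was also called with sample quality weights (adjusted p = 0.0209, limma-voom) and in replicates 1 and 2 alone (adjusted p = 0.0146, limma-voom), and in no other fit. *Tbx21*, the T-box factor T-bet, was at 32.8, 43.4 and 29.3 CPM in BIT mice, with WT replicate 3 between them, and the adjusted p from limma-voom was 0.538 with all mice and 0.0396 without WT replicate 3, against 0.671 with edgeR, 0.357 with DESeq2 and between 0.379 and 0.999 with any other mouse left out (limma-voom). *Hopx* stood at a log2 fold change of 0.35 (standard error 0.117), and the lower gene was *Zeb2*, named after its values were seen (log2 fold change -1.30, adjusted p = 0.575, limma-voom). Of 7 other effector cytokine genes 1 was lower at an unadjusted p below 0.05, *Tnf*, beside 4.32% of all genes. *Tnf* was at 6.75 ± 0.919 CPM in WT mice (SD, n = 3) and 3.98 ± 1.31 CPM in BIT mice (SD, n = 3, limma-voom adjusted p = 0.531). In the same list the log2 fold change was -0.42 for *Xcl1* (standard error 0.259) and, for *Lta*, -0.20 (standard error 0.194). The summed myeloid markers were between 13.1 and 21.5 CPM in WT mice and between 11.9 and 13.0 CPM in BIT mice. Between the genotypes they went the same way as the values of *Ciita*, *Zeb2* and *Tnf*. The margin was small, with 13.07 CPM in WT replicate 1 against 13.03 CPM in BIT replicate 3. Within WT mice they ran opposite to *Tnf*, at 13.1, 20.3 and 21.5 CPM where *Tnf* was at 7.69, 6.73 and 5.85 CPM (replicates 1 to 3). Of the 8 markers 0 had an unadjusted p below 0.05. The summed B cell markers lay between 28.2 and 42.4 CPM in WT mice and between 22.7 and 31.4 CPM in BIT mice. Like *Ciita*, they were highest in WT replicate 2. The part of either list of markers in these values was not tested.

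**Figure D5:**
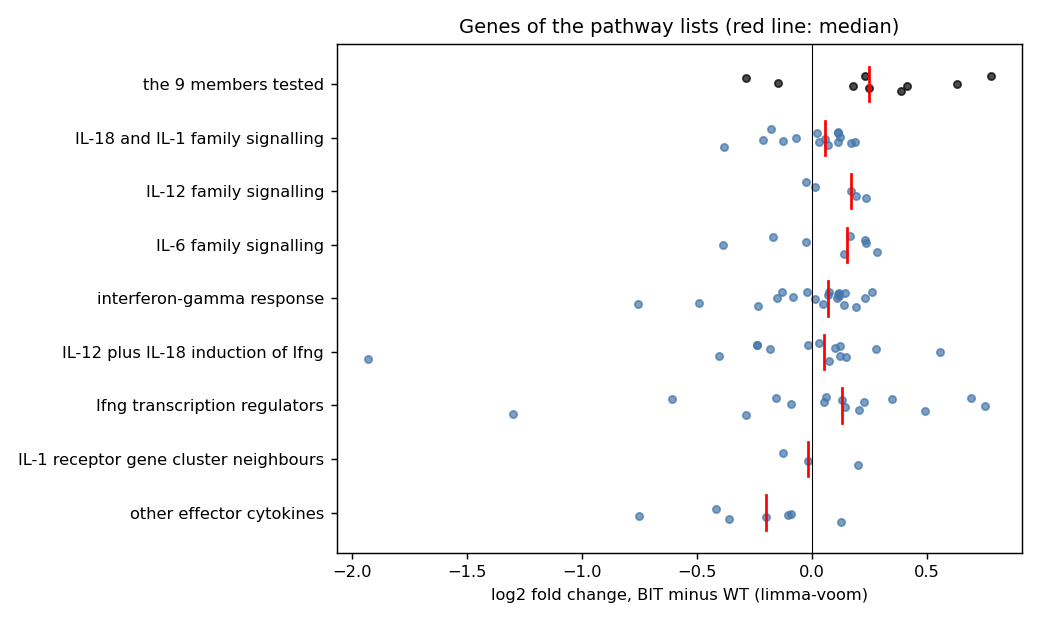
Log2 fold change of BIT minus WT mice (limma-voom) for the 9 genes compared (black) and for the tested genes of the 8 lists around them (blue, 1 point per gene, red line at the median). List medians lie between -0.20 and 0.17, and the points at the far left are *Jun* at -1.93 and *Zeb2* at -1.30.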

How the data were processed

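Total RNA depleted of ribosomal RNA was sequenced from sorted CD8+ T cells of 3 WT and 3 BIT mice as paired reads of 100 bases. The authors used Cutadapt 1.18 for trimming, STAR 2.7.0f for alignment to GRCm39 and RSEM 1.3.1 with Gencode M38 for counting (versions from the submitters' processing notes). The deposited table holds estimated counts for each gene, not normalized, which divide a read between the genes it matches. The kit keeps strand, but the setting used in counting is not given in the sources used here.

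Counts were rounded, genes were kept with filterByExpr of edgeR 4.0.16 (16105 genes), and BIT was compared with WT by limma 3.58.1 (voom with quantile normalization, as the study names, and eBayes) in R 4.3.3 with Benjamini-Hochberg adjustment. The call was an adjusted p below 0.05. CPM values were scaled with TMM factors, and lengths are the union of exons in Gencode M39, which holds 78263 of the 78275 identifiers. The script was tested on simulated data. Alternatives were TMM, edgeR's quasi-likelihood test, DESeq2 1.42.0, other filters, sample quality weights, terms for replicate numbers and each mouse left out. The 10 genes and all lists were chosen with earlier results of these data known. Genes named are the 10, the checks of the labels, the ligands, the 3 lowest p of each list, any gene called and the most abundant marker of each list where a result touches it, except for a gene that is not reported here. Of the marker genes, 2 γδ T cell genes were not matched by symbol. The natural killer list summed to between 10.4 and 12.3 CPM. Most of it was *Il1rl2*, a gene of the IL-1 receptor cluster, so this sum does not measure natural killer cells. The γδ list summed to between 3.76 and 5.41 CPM, mainly *Trdc*. The most abundant gene was *Thy1* among CD8+, *Ikzf2* among CD4+, *Cd79b* among B cell, *Lyz2* among myeloid and *Kit* among mast cell markers. Protein sequences were not used here.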

Additional observations from a re-analysis of the deposited data

How the results depend on the processing

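At the threshold of 0.05 on the adjusted p, 22 genes were called by limma-voom with quantile normalization, 14 with edgeR, 125 with DESeq2, 42 with a term for replicate 3, 71 in replicates 1 and 2 alone, and 1 to 37 with a mouse left out, the fewest without WT replicate 1 and the most without WT replicate 3. Of the 10 receptor and cytokine genes 1 was called, and 2 with DESeq2, 2 in replicates 1 and 2 alone and between 0 and 2 with a mouse left out. Of the genes in the lists around them 0 were called, and 1 with DESeq2, 1 with sample quality weights, 3 in replicates 1 and 2 alone and between 0 and 2 with a mouse left out. The share of higher genes among those called was 59.1%, but 47.6% with the replicate block and 43.7% in replicates 1 and 2 alone. *Map4k4*, a neighbour of the IL-1 receptor cluster, had a log2 fold change of -0.02, which changed sign to 0.041 with TMM, 0.043 with edgeR, 0.047 with DESeq2, 0.021 in replicates 1 and 2 alone and between -0.037 and 0.023 with a mouse left out. The number of the 9 neighbouring pairs, each ranked anew, in which all mice had the same order was 5, and 4 to 6 under the alternatives. Without division by length the order itself differed, with *Il6ra* above *Ifngr1* in 5 of 6 mice. All mice then agreed in 6 pairs, each with an adjusted p of 0.0469 (exact sign-flip permutation test). Deviations from the genotype mean correlated at 0.139, 0.0255 and 0.332 between mice with the same number. Between mice with different numbers the correlation was from -0.299 to 0.244, so the value of 0.332 for the mice numbered 3 was the highest. The main fit did not pair the mice by number, and the replicate block gave 21 genes over all, 1 of the 10 genes and 0 of the lists. The cause of these differences was not tested. Genes under about 1 CPM, such as *Ifng*, rest on few counts.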
